A study of Arabidopsis thaliana with 27 samples.

Results

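RNA from the apical part of Arabidopsis thaliana embryos at the torpedo stage was compared with RNA from the basal part. The comparison rests on 6 of the 27 arrays of the series, 3 labelled torpedo apical (apical 4, 5 and 6) and 3 labelled torpedo basal (basal 4, 5 and 6), chosen by their titles, and on all 22746 probe sets that are not array controls. The embryo parts were cut out by laser microdissection and total RNA was labelled with biotin and hybridised to Affymetrix ATH1 arrays, on which each gene is read by 1 or more sets of short oligonucleotide probes. All 6 arrays carry the same labels apart from the tissue: accession Col-0 (stock N1092), unmutated as far as the labels say, grown on compost in a growth room with 16 h days. The plants' ages, the number of embryos in a capture and the border at which apical was cut from basal are not given in the labels. Nothing in the labels ties a capture to a plant or a batch of embryos. The p-values below therefore set a difference against the spread from array to array, and that spread may be technical.

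The torpedo embryo is laid out along an axis. Its apical part carries the cotyledons and the shoot apex between them, and its basal part carries the hypocotyl and the embryonic root with its meristem. Auxin, which is made, conjugated and moved between cells, marks positions along this axis, YABBY and NGATHA transcription factors act in the outgrowing lateral organs, and AP2-family factors such as BBM act in the root meristem and in the early embryo.

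Basal 5 stood apart from the other 5 arrays, so each difference below is given with it and without it. Its correlation with the other basal arrays, over the log2 intensities of the 11857 probe sets that reached 50 on at least 2 of the 6 arrays, was 0.420 and 0.425, where basal 4 and basal 6 correlated at 0.738 with each other and the apical arrays at 0.793 to 0.827. Of these probe sets, 23.4% lay at least 2 (log2) from the other arrays of their group on basal 5, 10.4% and 12.7% did so on the other basal arrays, and 3.09% to 4.35% on the apical arrays. The spiked hybridization controls read a geometric mean of 791 on basal 5 and 379.8 to 637 on the other arrays. Signal at the 3′ end of control transcripts over that at the 5′ end, in log2, was 2.40 for actin on basal 5 and 3.84 to 5.31 on the other arrays, and 8.65 for GAPDH on basal 5 and 5.65 to 7.85 on the other arrays. The 2 measured seed coat markers summed to 459 on basal 5, nearly all of it DFR, an enzyme of flavonoid synthesis, against 32.2 and 65.2 on the other basal arrays and 21.1 to 49.6 on the apical arrays. The 2 measured endosperm markers, AGL62 and IKU2, summed to 51.3 on basal 5, to 8.52 and 9.93 on the other basal arrays and to 10.2 to 25.3 on the apical arrays. BAN, a defining seed coat gene, did not exceed 16.3 on any of the 6 arrays. The part of these array differences in the results was not tested.

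With all 6 arrays, limma called 1 of 22746 probe sets at a Benjamini-Hochberg adjusted p under 0.05 (0.0044%), and this probe set is higher in the apical part. Without basal 5 it called 40, of which 19 (0.0835%) were higher and 21 (0.0923%) were lower in the apical part. An unadjusted p under 0.05 was reached by 1231 probe sets with all 6 arrays, where 0.05 of all tests is 1137, and by 1545 without basal 5. These 40 calls rest on the scale and on the variance model: the 5-array fit called 0 after quantile normalization and 0 without an intensity trend in the variance, with unadjusted p under 0.05 for 1615 and 1620 probe sets. It called at most 1 probe set when any further array was left out. The log2 differences of the 40 ran from 2.94 to 6.28 in size, and for all 40 the sign was the same with basal 5 included.

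**Figure D1:**
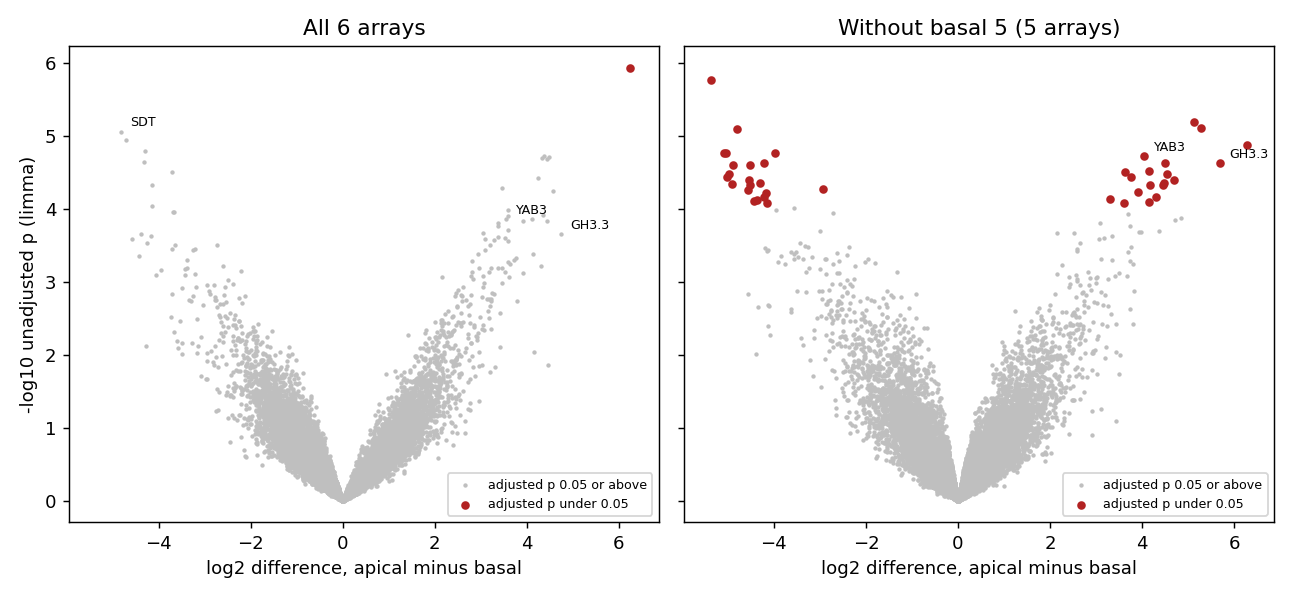
Each point is 1 of 22746 probe sets, with the log2 difference of apical minus basal on the x axis and the negative log10 of the unadjusted limma p on the y axis. The left panel uses all 6 arrays and holds 1 called probe set; the right panel leaves out basal 5 and holds 40, shown in red.

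The array that was left out gives a reading of these 40 probe sets that did not enter their choice on the basal side, although the apical arrays are shared. The 40 were chosen for large differences on these same apical arrays, so their order against basal 5 is partly set by that choice. The shares over all probe sets carry no such choice and are not a like comparison. On basal 5, all 19 of the apically higher probe sets read below every apical array, which 24.9% of all probe sets did. Of the 21 apically lower ones, 19 read above every apical array on basal 5, which 49.4% of all probe sets did. These orders include values under 50, such as those of AT4G13030 and AT4G32870, that are read only as low. In level, 14 of the 21 read under 0.25 times the lower of basal 4 and basal 6 on basal 5, and 15 of the 19 read above both. The 40 were also chosen for basal 4 and basal 6 lying far from the apical arrays. These counts are thus partly set by that choice. The same shares over all probe sets are not given here, so the counts are not read as a trait of basal 5. Among all probe sets whose 5 arrays did not overlap with a difference of at least 1 (log2), basal 5 lay on the basal side in 579 of 1001 (57.8%) of the apically higher and 615 of 1040 (59.1%) of the apically lower ones.

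The 1 probe set called with all 6 arrays, 248807_at, has no gene named for it here. Its intensity was 7001, 8477 and 5535 on apical 4, 5 and 6 and 194, 86.5 and 28.6 on basal 4, 5 and 6. Every apical array read far above every basal array. The log2 difference was 6.24 ± 0.63 (SE, limma adjusted p = 0.0261) with all arrays and 6.28 ± 0.65 (adjusted p = 0.0384) without basal 5. Its difference was 5.62 or more under every other setting run, but the call was lost after quantile normalization (adjusted p = 0.101), after median centring (0.0918), without the intensity trend (0.0689), over 25 arrays (0.0650) and without any 1 apical array (0.220 to 0.336).

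Among genes of organ polarity and outgrowth, YAB3, a YABBY transcription factor that acts on the abaxial side of lateral organs, was higher in the apical part. Its intensity was 757, 484 and 439.7 on apical 4, 5 and 6 and 20.0, 83.0 and 28.0 on basal 4, 5 and 6. The lowest apical array read more than 5 times the highest basal one, which was basal 5. Without basal 5 the log2 difference was 4.04 ± 0.44 (limma adjusted p = 0.0384), and with it 3.55 ± 0.61 (adjusted p = 0.140), past the threshold in the first only. As each array reads RNA of a whole tissue piece, here and below fewer cells of a type and less RNA per cell cannot be told apart.

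NGA1, a B3-domain factor of the NGATHA family that acts in lateral organ growth, was even across the apical arrays at 208, 190.5 and 197.5 and read 11.7, 9.80 and 1.94 on the basal ones. The groups lay far apart on every array, yet the limma adjusted p was 0.140 with all arrays (difference 3.60 ± 0.59) and 0.0611 without basal 5 (3.69 ± 0.52), so neither passed. NGA2, of the same family, read 164, 209 and 156 in the apical part and 48.3, 113 and 39.4 in the basal part, without overlap, with a difference of 1.39 (1.79 without basal 5) that did not pass. NGA3 and NGA4, the remaining members, were dim and overlapped between the groups, with differences of -0.47 and -0.81 (-0.20 and -0.70 without basal 5).

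PHV, a class III homeodomain-leucine zipper factor of the adaxial side, read 411, 139 and 147.5 on the apical arrays and 9.50, 39.0 and 174 on the basal ones. Basal 6 exceeded apical 5 and apical 6, so the groups overlapped, and the difference of 1.94 (1.84 without basal 5) did not pass. JAG, a zinc finger factor of organ outgrowth, read 69.4 to 129 in the apical part and 8.30 to 91.9 in the basal part, where the highest value was basal 5, and it did not pass either (1.17, and 1.74 without basal 5). YAB5, a second YABBY gene, overlapped fully, with 26.5 to 90.5 apical against 1.47 to 95.4 basal (difference 0.59, and 1.41 without basal 5).

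Of the 32 genes listed for organ polarity and growth, 9 could be named on the array. With all arrays 7 of the 9 had a difference above 0 and 0 were called by limma (4 with an unadjusted p under 0.05). Without basal 5, 1 was called, YAB3. Groups did not overlap and differed by at least 1 in 3 of them, all higher in the apical part, where 3.17% of all probe sets did so. The median difference of the 9 was 1.17 with all arrays and 1.74 without basal 5, where the median over all probe sets was -0.15 and 0.01.

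**Figure D2:**
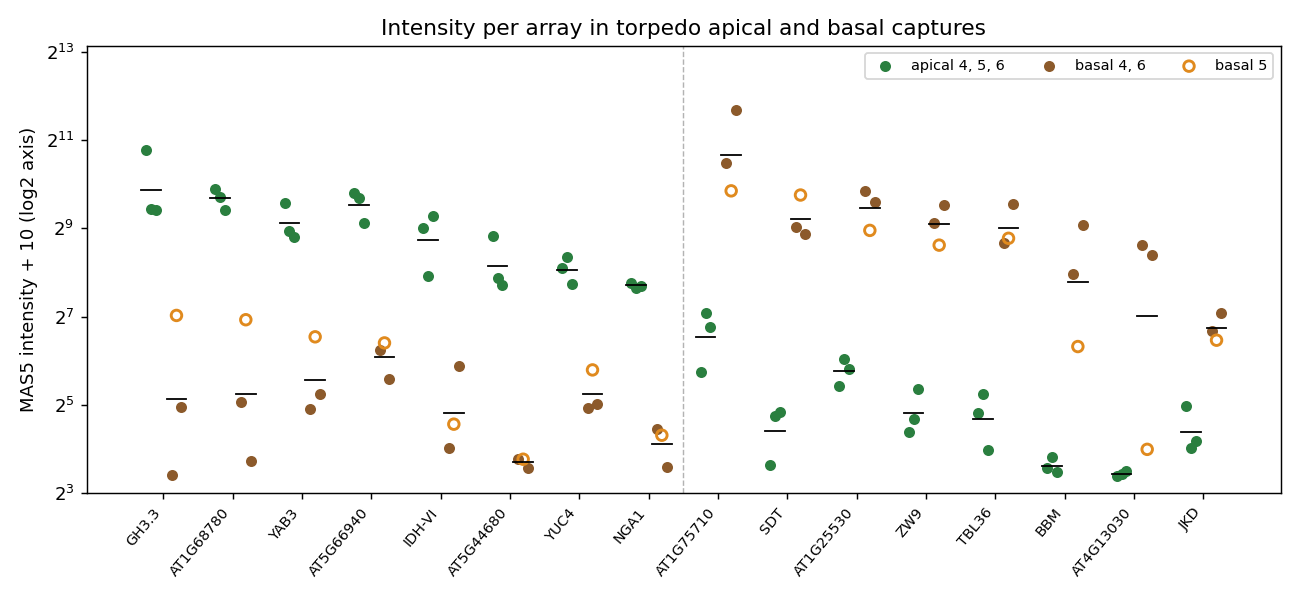
MAS5 intensity plus 10 on a log2 axis for 16 genes, with 1 point per array; filled points are apical 4 to 6 (green) and basal 4 and 6 (brown), open orange circles are basal 5, and bars are means of the log2 values. The 8 genes on the left read higher and the 8 on the right lower in the apical part. Basal 5 lies on the basal side of every apical point for all 16, which is partly set by their choice on these arrays. AT4G29020, whose order basal 5 breaks, is not shown. For AT4G13030 and BBM basal 5 lies well below the other basal arrays, and its AT4G13030 value is read only as low.

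2 genes of auxin synthesis and inactivation were higher on every apical array. GH3.3, which conjugates auxin to amino acids and so takes it out of the active pool, read 1751, 685.5 and 668 on apical 4, 5 and 6 and 0.604, 120.2 and 20.8 on basal 4, 5 and 6. Basal 5 was the highest of the basal arrays, and none came near the apical ones. Without basal 5 the log2 difference was 5.70 ± 0.64 (limma adjusted p = 0.0384); with it, it was 4.75 ± 0.86 (adjusted p = 0.167).

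YUC4, a flavin monooxygenase of auxin synthesis, read 263.5, 316.5 and 203 on the apical arrays and 20.3, 45.3 and 22.35 on the basal arrays. The groups were separate, and again basal 5 was the highest basal array. The difference was 2.82 ± 0.57 with all arrays (limma adjusted p = 0.225) and 3.09 ± 0.45 without basal 5 (adjusted p = 0.0750), which did not pass.

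The other 7 measured genes of auxin synthesis, conjugation and transport, of 30 listed, showed no such separation, and their differences ran from -0.97 to -0.16 with all arrays. WES1, another GH3 enzyme, read 44.9 and 58.1 on basal 4 and 6, inside the apical range of 52.1 to 85.1 or just under it, and 748 on basal 5, so its difference of -0.97 became 0.24 without basal 5. GH3.1, GH3.17, YUC6 and UGT84B1 stayed at or under 30.9 on all 6 arrays. The median of the 9 was -0.33 with all arrays and -0.00181 without basal 5, so the list as a whole did not lie above the median of all probe sets.

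7 Aux/IAA repressor genes, of 27 listed, had a median difference of -0.20 with all arrays, close to the -0.15 of all probe sets. Without basal 5 their median was -0.32, where that of all probe sets was 0.01. Limma called 0 in either fit (1 with an unadjusted p under 0.05 in each). IAA33 was the member with separate groups, at 12.0, 31.6 and 3.87 on the apical arrays and 115, 72.1 and 116 on the basal arrays (difference -2.23, and -2.43 without basal 5, not passing). IAA20 and IAA30 varied as much within a group as between groups: IAA20 read 11.1 to 127 in the apical part and 15.2 to 378 in the basal part (difference -0.20, and -1.01 without basal 5).

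At the root pole, BBM, an AP2-family transcription factor of the embryo and root meristem, was lower in the apical part. It read 1.92, 3.97 and 1.11 on apical 4, 5 and 6 and 238, 69.8 and 531 on basal 4, 5 and 6. Basal 5 was the lowest basal array and still read over 10 times the highest apical one. The log2 difference was -4.90 ± 0.60 without basal 5 (limma adjusted p = 0.0384) and -4.17 ± 0.76 with it (adjusted p = 0.167).

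JKD, a zinc finger factor of the root ground tissue and stem cell niche, read 21.3, 6.22 and 8.12 on the apical arrays and 92.0, 78.2 and 125 on the basal arrays. The basal arrays, basal 5 included, were close to each other and all above the apical ones, but the difference of -2.35 ± 0.62 did not pass (limma adjusted p = 0.501, and 0.324 without basal 5). The third measured gene of this list, AT5G48940, read 2.56 to 49.4 in the apical part and 103 to 184 in the basal part (difference -2.18, and -2.41 without basal 5). All 3 measured genes, of 26 listed, were lower in the apical part without overlap, where 4.05% of all probe sets were; their median was -2.35 with all arrays and -2.49 without basal 5, and limma called 0 with all arrays and 1 without basal 5.

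These levels can be set beside the tissue labels, but not as an independent check. YAB3, YAB5, BBM and JKD were among the genes an earlier reading of these data had named for this comparison. Of the cotyledon and leaf markers named for the captures, YAB3 and YAB5 could be read, and of the root pole markers BBM and JKD. YAB3, BBM and JKD each separated all 6 arrays in the direction of their label, and YAB5 did not. CLV3, the peptide signal of the shoot stem cells, read 3.79, 15.7 and 28.2 on the apical arrays and 4.34, 21.4 and 4.21 on the basal arrays. The groups overlapped, and values under 50 are read only as low. This marker therefore cannot tell whether the shoot apex lay in the apical part. LAS, a GRAS factor of organ boundaries, read 53.3 to 65.3 apical and 30.3 to 54.5 basal, and the groups overlapped. No suspensor marker could be read here.

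Outside these lists, 3 further genes with a symbol were called as lower in the apical part without basal 5. SDT, TBL36 and ZW9 read 2.34 to 30.8 over the apical arrays and 383 to 854 over the basal ones. SDT, the acyltransferase that forms disinapoyl spermidine, read 2.34, 16.7 and 18.3 on the apical arrays and 513, 854 and 458 on the basal arrays. Basal 5 was the highest of the basal arrays. The difference was -4.55 ± 0.57 without basal 5 (limma adjusted p = 0.0415) and -4.82 ± 0.60 with all arrays (adjusted p = 0.0566).

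TBL36, of a family whose studied members acetylate cell wall polysaccharides, read 18.0, 28.1 and 5.62 on the apical arrays and 398, 428 and 741 on the basal arrays. Its difference was -4.44 ± 0.59 without basal 5 (limma adjusted p = 0.0474) and -4.33 ± 0.60 with all arrays (adjusted p = 0.0566). For this gene basal 5 lay between the other basal arrays. ZW9 read 11.0, 15.5 and 30.8 against 549.7, 383 and 724, with a difference of -4.52 ± 0.51 without basal 5 (adjusted p = 0.0384) and -4.28 ± 0.57 with all arrays (adjusted p = 0.0566). Basal 5 was the lowest basal array for ZW9.

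Of the 40 probe sets called without basal 5, 19 map to 1 gene, 7 of them higher and 12 lower in the apical part, 20 have no gene named and 1 maps to several. Besides GH3.3 and YAB3, the higher ones were AT1G68780, AT5G44680, AT3G51660, AT5G05450 and AT5G66940. AT5G44680 read 441, 224 and 201 on the apical arrays and 3.69, 3.58 and 1.84 on the basal arrays, the 3 basal arrays all very low (difference 4.44, and 4.47 without basal 5). AT1G68780 read 944, 832 and 672 against 23.4, 112 and 3.13, with basal 5 the highest of the basal values and far under the apical ones (difference 4.44, and 5.29 without basal 5). AT3G51660, AT5G05450 and AT5G66940 read 161.5 to 877 over the apical arrays and 1.10 to 96.5 over the basal arrays, and each kept its groups apart with basal 5 included.

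Besides BBM, SDT, TBL36 and ZW9, the lower ones were AT4G13030, AT4G32870, AT1G75710, AT5G41620, AT4G17350, AT1G31950, AT1G25530 and AT4G29020. AT5G41620, AT4G17350, AT1G31950 and AT1G25530 read 0.858 to 56.1 over the apical arrays and 8.46 to 918 over the basal arrays, each without overlap. Their differences were -4.36, -4.22, -4.21 and -3.97 without basal 5 and -3.14, -3.42, -3.33 and -3.71 with it. Basal values as low as 8.46 are read only as low, so a lack of overlap that rests on them is not read as a separation. AT1G75710 kept its order with basal 5 included, at 43.8, 126 and 99.0 on the apical arrays and 1428, 913 and 3265 on the basal arrays (difference -4.14, and -4.55 without basal 5). AT4G29020 is one of the 2 whose order basal 5 broke: it read 194, 257 and 353 on the apical arrays, 2056 and 2076 on basal 4 and 6, and 28.6 on basal 5. The difference of AT4G29020 was accordingly -2.94 without basal 5 and -1.03 with it.

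AT4G13030 and AT4G32870 read low on basal 5, at values that cannot be set apart from the apical ones. AT4G13030 read at most 1.27 on the apical arrays, 385 and 327 on basal 4 and 6 and 5.86 on basal 5. AT4G32870 read at most 10.0 on the apical arrays, 552 and 458 on basal 4 and 6 and 16.5 on basal 5. The differences of these genes were -5.08 and -5.03 without basal 5 and -3.57 and -3.61 with it included.

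Some genes had a low p with all arrays and did not pass in either fit. IDH-VI, a subunit of the mitochondrial isocitrate dehydrogenase, read 502.5, 232 and 609.9 on the apical arrays and 6.15, 13.6 and 48.4 on the basal arrays (difference 3.92, limma adjusted p = 0.140, and 3.79 without basal 5). Its close relative IDH-V, which was picked after its values were seen, read 2117, 1408 and 2622 against 273, 96.5 and 413 (3.09, and 2.53 without basal 5); cross-hybridisation between them was not tested. AT1G71695 read 219 to 964 in the apical part and at most 15.6 in the basal part (4.57, adjusted p = 0.0915, and 4.84 without basal 5), and AT3G58180 read 356 to 418 against 17.8 to 58.2 (3.38, and 3.16 without basal 5). In the basal direction, AT5G35940 read 6.53 to 22.4 in the apical part and 181 to 735 in the basal part (-4.14, adjusted p = 0.137, and -3.63 without basal 5). AT5G26731 read 3.73 to 18.6 against 162 to 318 (-3.69, and -3.55 without basal 5). AT2G26520 read 1.73 to 5.02 against 72.3 to 873 (-4.58, and -4.33 without basal 5), and AT2G31390 read 3.28 to 27.8 against 104 to 377 (-3.43, and -2.97 without basal 5). That the groups of these 8 genes do not overlap was part of their choice.

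**Figure D3:**
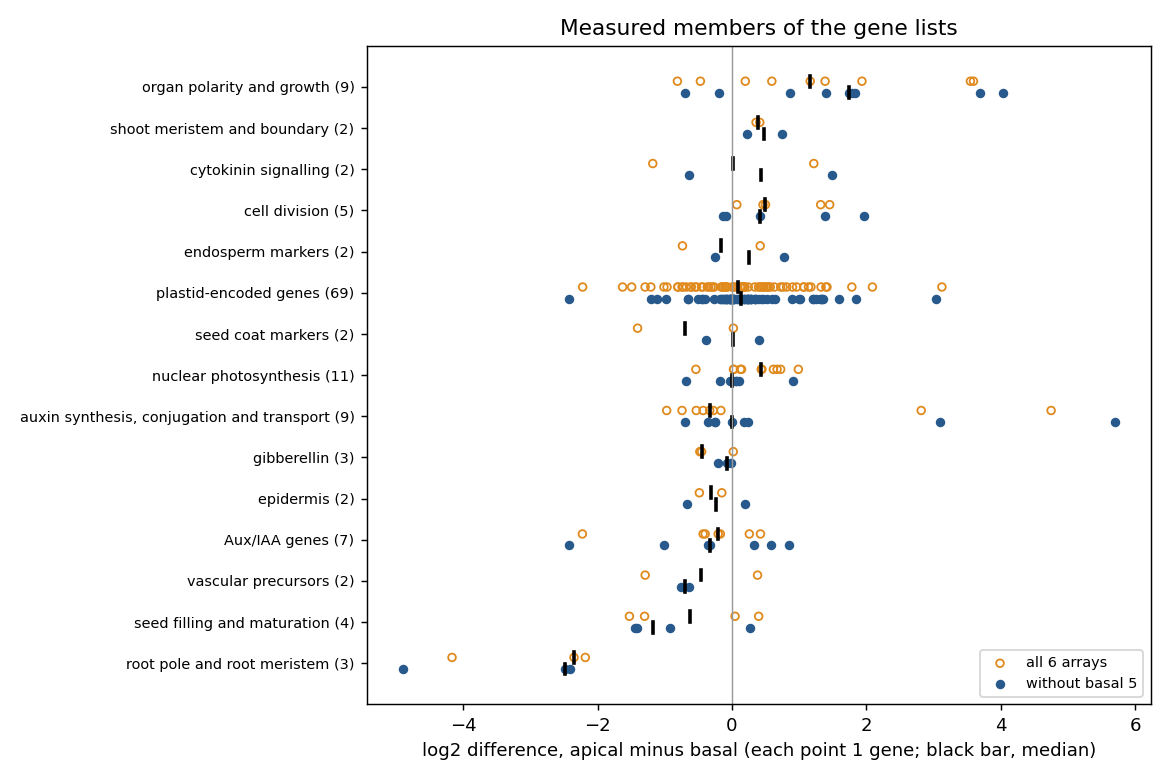
Each point is 1 measured member of a gene list, placed by its log2 difference of apical minus basal with all 6 arrays (open orange) and without basal 5 (filled blue); black bars are list medians and the number measured stands in brackets. The organ polarity list has medians of 1.17 and 1.74 and the root pole list of -2.35 and -2.49; the nuclear photosynthesis list has a median of 0.44, and of 0.01 once basal 5 is left out.

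No nuclear photosynthesis gene passed in either fit. With all arrays 10 of the 11 measured members, of 51 listed, had a difference above 0, with a median of 0.44, and without basal 5 the median was 0.01 and 6 of the 11 were above 0. LHCB4.1, an antenna protein of photosystem II, read 1625 to 2283 on the apical arrays, 2195 and 1603 on basal 4 and 6, and 235 on basal 5. PSBW, a small photosystem II subunit, read 6498 to 8419 in the apical part and 7034 to 7736 in the basal part. Limma called 0 of the 11 in either fit, and 0 had an unadjusted p under 0.05.

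The 69 plastid-encoded genes had a median difference of 0.08 with all arrays and 0.14 without basal 5, and limma called 0 in both fits (4 and 7 with an unadjusted p under 0.05). Groups did not overlap and differed by at least 1 in 2 upwards and 2 downwards, near the shares over all probe sets. ycf4, a photosystem I assembly factor, read 621, 375 and 121 on the apical arrays and 62.3, 22.2 and 10.5 on the basal arrays. rpoC1, a subunit of the plastid RNA polymerase, read 784, 731 and 634 against 320.0, 282 and 239. The differences of ycf4 and rpoC1 were 3.13 and 1.33 (3.04 and 1.34 without basal 5). rps14, a plastid ribosomal protein gene, read 5.81 to 23.6 in the apical part and 26.3 to 378 in the basal part. Its difference was -2.22, and -2.42 without basal 5. rpoB read 2.01 to 22.1 against 22.9 to 43.2. For rps14 and rpoB the lack of overlap rests on values under 50, so it is not read as a separation.

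Among 5 measured cell division genes, of 21 listed, AUR3, an Aurora kinase, had separate groups, at 181, 169 and 265 on the apical arrays and 29.8, 59.8 and 153 on the basal arrays (difference 1.45, and 1.39 without basal 5, not passing). Its relatives AUR1 and AUR2 overlapped, and the AUR1 difference was 0.50 with all arrays and -0.13 without basal 5. PRL, an MCM7 subunit of the replicative helicase, read 412 to 619 in the apical part and 54.6, 511 and 283 on basal 4, 5 and 6, with overlap (difference 1.32, and 1.96 without basal 5). The median of the 5 was 0.50 with all arrays and 0.42 without basal 5, with 0 called by limma and 1 with an unadjusted p under 0.05.

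Seed filling genes showed no shared direction with all arrays, with 2 of 4 measured members above 0. Without basal 5, 3 of the 4 were below 0. Limma called 0 in either fit (1 with an unadjusted p under 0.05 with all arrays and 0 without basal 5). OLEO3, an oil body protein, was bright in both parts, at 3699 to 4463 apical and 2495 to 4276 basal (difference 0.40, and 0.27 without basal 5). AT3G01570 read 10.3 to 496 in the apical part and 10.2 to 648 in the basal part (difference 0.05, and -1.41 without basal 5). The 2 members below 0 with all arrays were PAP85 and AT3G15670. Their differences were -1.30 and -1.53 (-1.44 and -0.92 without basal 5). The median of the 4 was -0.63 with all arrays and -1.17 without basal 5.

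In the hormone response lists, ARR15, a type-A response regulator of cytokinin signalling, read 14.8, 30.0 and 57.8 on the apical arrays and 3.34, 15.3 and 5.80 on the basal arrays, with an overlap at basal 5 (difference 1.22, and 1.49 without basal 5). RR16, another type-A regulator, read 1.50 to 21.4 in the apical part and 15.4 to 74.2 in the basal part (difference -1.18, and -0.63 without basal 5). The gibberellin receptors GID1A, GID1B and GID1C stayed between 2.89 and 56.3, with differences of 0.02, -0.45 and -0.48 (-0.0790, -0.00708 and -0.21 without basal 5). LHW, a factor of vascular precursors, read 94.9 to 115 in the apical part and 218, 8.15 and 159 on basal 4, 5 and 6, so its difference of 0.38 became -0.76 without basal 5. CR4, a receptor kinase of the epidermis, and SPCH, a factor of the stomatal lineage, overlapped between the groups, with differences of -0.15 and -0.48 (-0.66 and 0.19 without basal 5).

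Over all the lists, 132 genes were measured. Limma called 0 of them with all arrays (16 with an unadjusted p under 0.05) and 3 without basal 5, namely YAB3, GH3.3 and BBM (19 with an unadjusted p under 0.05). Without overlap and with a difference of at least 1, 8 of the 132 were higher and 6 lower in the apical part, where 3.17% and 4.05% of all probe sets were, so the lower ones are near that share. Some of the higher ones, such as YAB3, NGA1, GH3.3 and YUC4, had been named by an earlier reading of these data. The counts of the lists, here and above, are therefore a description only.

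Related contrasts were read in captures that did not enter these fits. The heart and further torpedo captures are labelled cotyledon and root, which need not match the apical and basal parts. Heart stage embryos were captured as cotyledon and root poles (3 arrays each), globular embryos as apical and basal parts (3 each), and further torpedo embryos as cotyledon and root (2 each). Each difference was set against the median of all probe sets in that comparison, which was 0.28 for heart, -0.06 for globular and -0.36 for torpedo cotyledon against root, so that 50% of all probe sets lie on each side.

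Of the 40 probe sets, 13 of 19 apically higher ones lay above that median in heart and 17 of 21 apically lower ones below it. Between torpedo cotyledon and root, 16 of 19 and 17 of 21 lay on the same side. At the globular stage 10 of 19 and 10 of 21 did, which is near 50%. In heart, 3 of the 19 were higher in cotyledon without overlap and with a difference of at least 1 (15.8%, where 3.67% of all probe sets were), and 2 of the 21 were lower (9.52%, where 1.50% were). At the globular stage 0 of 19 and 0 of 21 met this measure, where 2.30% and 2.78% of all probe sets did. Between torpedo cotyledon and root, 5 of 19 (26.3%) and 11 of 21 (52.4%) met it, where 8.03% and 19.1% of all did. Limma called 0 of the 40 in any of these 3 comparisons, and 0 of the wider set of 720 and 921 described next. The number it called there over all probe sets is not given here, so this is not read as a trait of the 40.

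For the wider set of 720 probe sets higher and 921 lower in the apical part without overlap, the shares on the same side of the median were 53.4% of these 1641 in heart and 51.1% at the globular stage. Between torpedo cotyledon and root they were 55.8% of the 720 and 50.6% of the 921. By the measure of no overlap and a difference of at least 1, in heart 8.06% of the 720 were higher in cotyledon, where 3.67% of all probe sets were, and 2.61% of the 921 were lower, where 1.50% were. At the globular stage 3.06% of the 720 and 2.61% of the 921 met it, where 2.30% and 2.78% of all did, and between torpedo cotyledon and root 10.7% and 20.7% did, where 8.03% and 19.1% of all did.

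**Figure D4:**
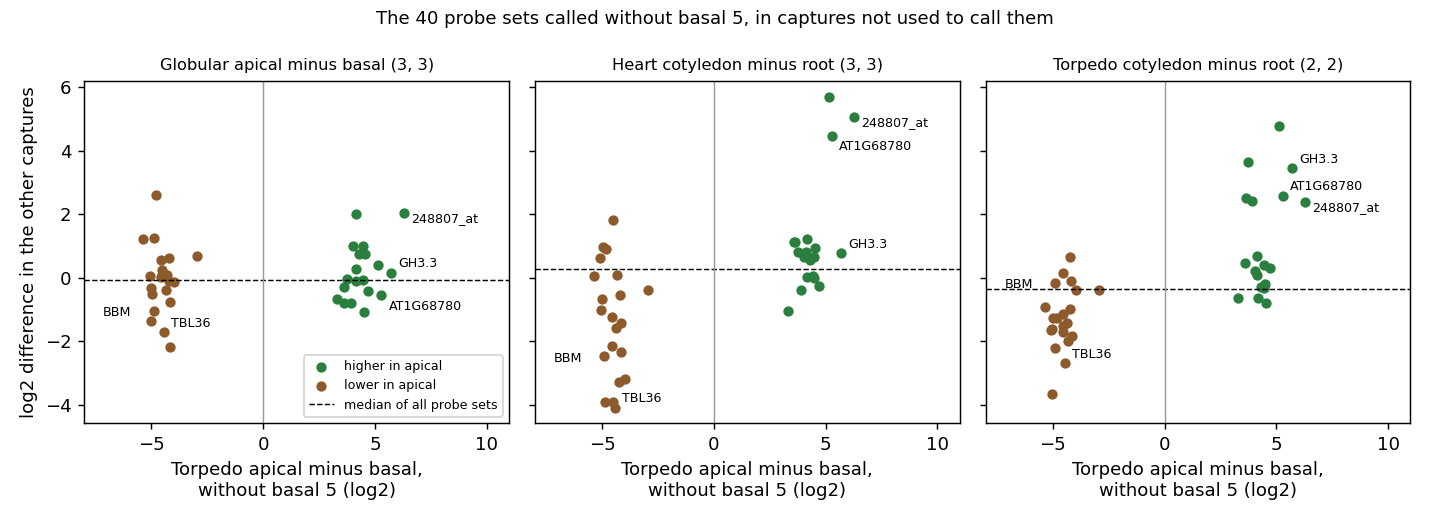
The 40 probe sets called without basal 5, with their torpedo log2 difference on the x axis and, on the y axis, the log2 difference in globular, heart and further torpedo captures; the number of arrays per group stands in brackets and the dashed line is the median of all probe sets. Most brown points lie below the line in heart (17 of 21) and in torpedo cotyledon minus root (17 of 21). At the globular stage each colour lies on both sides of the line (10 of 19 and 10 of 21 on the same side as in torpedo).

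Single genes differed in how far their pattern reached. TBL36 read 944 on average in heart root (109 to 1903) and 42.7 in heart cotyledon (6.10 to 112), and 312 in torpedo root against 39.4 in torpedo cotyledon. BBM averaged 359 in heart root (9.40 to 557) and 28.1 in heart cotyledon, but 7.70 in the torpedo root captures, where the torpedo basal captures averaged 279.5 ± 233 (SD, n = 3). JKD averaged 239 in heart root and 14.6 in heart cotyledon, and 18.5 in torpedo root against 74.5 in torpedo cotyledon.

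GH3.3 averaged 806 in the torpedo cotyledon captures (155 to 1456) and 62.9 in torpedo root, on the same side as in the apical part, and at most 22.0 in the heart and globular groups. SDT was bright in the torpedo basal captures alone, where it averaged 608 ± 215 (SD, n = 3); its next highest group mean was 97.1, in heart root. YAB3 averaged 560.4 ± 172 (SD, n = 3) in the torpedo apical captures and at most 151 in the other 8 groups. 248807_at averaged 4903 in heart cotyledon, but over a range of 19.0 to 13079.5, and 195 in torpedo cotyledon against 29.5 in torpedo root.

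**Figure D5:**
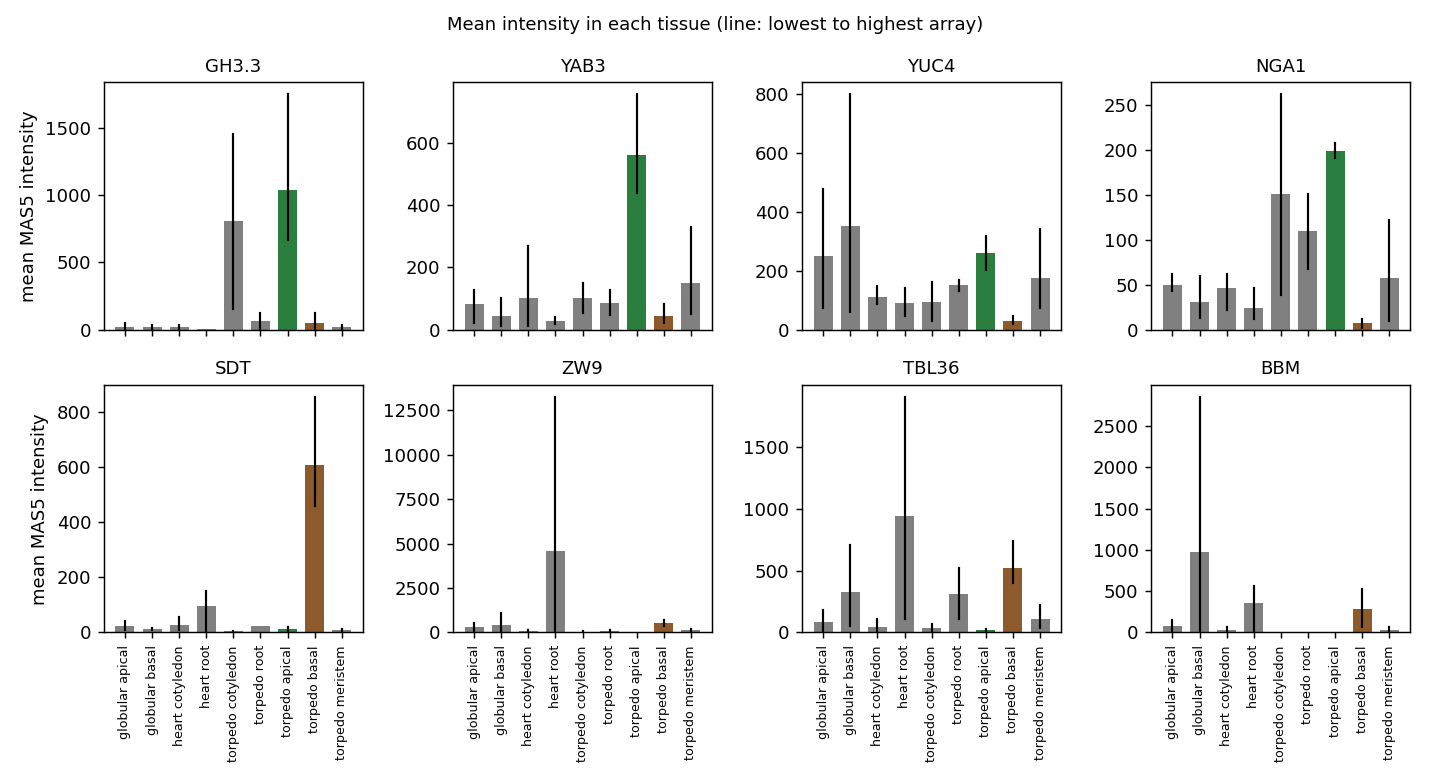
Mean MAS5 intensity (bars, from 0) of 8 genes in each of the 9 capture groups, with lines from the lowest to the highest array; groups hold 3 arrays, and torpedo cotyledon and root 2. Torpedo apical is green and torpedo basal brown. GH3.3 is also bright in torpedo cotyledon, TBL36 and BBM are also bright in heart root with wide ranges, and SDT is bright in torpedo basal.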

How the data were processed

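Per the submitters' processing notes, the authors used MAS5 to make the deposited linear probe set intensities. The MAS5 version and its settings: not given in the sources used here. Detection calls and probe-level data were not used here. 22810 probe sets were deposited; 64 array controls were left out, and 22746 were tested.

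Values plus a pseudocount of 10 were taken to log2 without further normalization, so differences of dim probe sets are understated. limma 3.58.1 in R 4.3.3 (lmFit and eBayes with an intensity trend) was fitted on the 6 arrays alone and again without basal 5, 2-sided, with Benjamini-Hochberg adjustment over all 22746 probe sets and a threshold of 0.05. Errors beside differences are standard errors of this fit. The small number of arrays limits the precision. The fit was tested on simulated data. 2 further torpedo arrays whose title and tissue label contradict each other entered no comparison.

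Probe sets were named from the platform's gene table, updated through RefSeq names of TAIR10.1 (13436 of 13513 single-gene probe sets matched); 503 had several genes and 8730 none named here. Lists use the brightest probe set per gene. A list of cytosolic ribosomal protein genes matched none and was not used. The share of probe sets on the same side in heart and globular captures had been planned over called probe sets; as 1 was called, it was taken over those without overlap.

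Named were up to 12 single-gene probe sets each way with the largest difference among those called without overlap, in either fit, filled to 8 by lowest p where fewer were found and where values reached 50 on at least 2 arrays, up to 4 members of each list by t, and 16 genes an earlier reading had named. Exceptions are IDH-V, AT4G29020, whose groups overlap with basal 5, the dim or overlapping list members quoted as contrast, and 248807_at. Members, lists and rules were chosen with earlier results of these data known. Same-numbered apical and basal arrays deviated together with correlations of 0.07, 0.01 and -0.09, so the numbers were not taken as pairs.

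Alternatives were quantile normalization, median centring, pseudocounts of 1 and 50, a filter at 50, no intensity trend, array weights, fits over 25 or over 9 arrays, a block for the replicate number, and each array left out in turn. Those run on the 5-array fit were added after seeing the data.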

Additional observations from a re-analysis of the deposited data

How the results depend on the processing

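With all 6 arrays limma called 1 probe set, and this count was 0 after quantile normalization, 0 after median centring and 0 without an intensity trend (1254, 1280 and 1279 with an unadjusted p under 0.05). It was 17 after filtering to probe sets that reach 50 on 2 arrays, 102 with array weights (basal 5 weighted 0.182, the others 0.978 to 2.24), 18 over 25 arrays and 6 over the 9 torpedo apical, basal and meristem arrays. Leaving out 1 array gave 0 to 40: 0 without any apical array (671 to 772 with an unadjusted p under 0.05), 1 without basal 4, 3 without basal 6 and 40 without basal 5. With the replicate number as a block it was 1, and the numbers are not shown to pair the arrays. Of the 40 called without basal 5, array weights called 39, the fit over 25 arrays 9 and the filter 11. The count of 40 was 0 after quantile normalization, 0 without an intensity trend, 11 with a pseudocount of 50, 41 after median centring, 46 with a pseudocount of 1, 57 with the filter, and 0 to 1 with a further array left out (1305 to 2256 with an unadjusted p under 0.05). The cause was not tested. The heart share of 53.4% was 57.9% with a pseudocount of 50 and 49.6% to 56.4% with 1 array left out; the globular share of 51.1% ran from 48.7% (without basal 5) to 52.9% with 1 array left out. Leaving out basal 5 moved the median of all probe sets from -0.15 to 0.01. The block changed no other call.

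Among the named list members some differences turned sign. With 1 array left out at a time, YAB5 ran from -0.19 to 1.41, PSBY from -0.00164 to 1.09, GID1C from -0.75 to 0.0521, SPCH from -0.85 to 0.19, CR4 from -0.66 to 0.48 and AUR1 from -0.13 to 1.09. IAA29 ran from -0.10 to 0.85, LHCB4.2 from -0.17 to 1.28, AT3G01570 from -1.41 to 1.53, GID1A from -0.22 to 0.36, IAA34 from -0.98 to 0.33, BAN from -0.26 to 0.40 and LHW from -0.76 to 1.06. With array weights SPCH was 0.0315, GID1B 0.0114, AT3G01570 -1.81, GID1A -0.0517, IAA34 0.0520 and LHW -0.51. CR4 was 0.0803 after quantile normalization and 0.00274 after median centring, and BAN was -0.00341 with a pseudocount of 50. None of these passed in any of these runs. These runs cover the genes the naming rule gave. Genes quoted beside the rule, such as WES1, NGA3, IDH-V, ROXY1 and UBC32, were compared with and without basal 5 only, and WES1 turned from -0.97 to 0.24. In the runs, 62 values passed the threshold where the 6-array fit had not. No background-level bound can be set here, since detection calls were not used, so values under about 50 are read only as low.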

Other observations

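Among genes with a symbol, those whose groups did not overlap and differed by at least 1 (log2) were 54 higher and 54 lower in the apical part. Of the 1580 probe sets with a symbol, 932 passed the filter on low values described above. The counts of 54 may be limited to these 932, so they are not set beside the shares over all probe sets. None of those named here was called by limma with all arrays or without basal 5, and the examples were picked after their values were seen. ROXY1, a glutaredoxin of petal development, read 1550, 1234 and 1200 on the apical arrays and 58.8, 111 and 863 on the basal arrays, so basal 6 came close to the apical range (difference 2.78, and 2.44 without basal 5). PAM68, an assembly factor of photosystem II, read 701, 1340 and 691 against 182, 101 and 305 (difference 2.22, and 1.83 without basal 5), and CHLM, a methyltransferase of chlorophyll synthesis, read 551, 566.5 and 628 against 274, 119 and 192.5 (difference 1.30 without basal 5). These 2 were higher on all apical arrays, whereas the listed nuclear photosynthesis genes had a median near that of all probe sets without basal 5.

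In the basal direction, UBC32, a ubiquitin-conjugating enzyme, read at most 27.8 on the apical arrays and 193, 175 and 237 on the basal arrays (-3.20, and -3.29 without basal 5), and here basal 5 stayed close to the other basal arrays. AGO7, the Argonaute of the trans-acting small RNA pathway that limits ARF genes in leaves, read 34.5, 348 and 148 against 796, 1254 and 549 (-2.61, and -2.30 without basal 5). Of 15 measured IQD genes, a family of calmodulin-binding proteins, 4 were lower in the apical part without overlap and 0 higher. Of 15 measured TRM genes 2 were lower and 2 higher. By the same measure, 4.05% of all probe sets were lower and 3.17% higher. Both families were picked after their values were seen, so these counts are a description. IQD16 read 6.23, 24.7 and 55.4 on the apical arrays and 384, 173 and 573 on the basal arrays (-3.39, and -3.85 without basal 5). IQD18, IQD30 and IQD15 had differences of -1.61, -1.46 and -1.18 (-2.05, -1.45 and -1.09 without basal 5). The median of the 15 IQD genes was -0.27 with all arrays and -0.09 without basal 5, where all probe sets had -0.15 and 0.01.

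Of the 31 probe sets that reached 10000 on some of the 6 arrays, 1 had groups that did not overlap with a difference of at least 1, AT5G38170, a share no higher than over all probe sets. It read 3999, 2296 and 3713 on the apical arrays and 11301, 21403 and 14106 on the basal arrays, with a difference of -2.21 (-1.96 without basal 5) that did not pass.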
